A study of Homo sapiens with 12 samples.

Results

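A set of 10 genes of the xenobiotic response were followed as a readout of drug exposure in cells named H520, an established cell line from lung squamous cell carcinoma. They are AHR, AHRR, TIPARP, CYP1A1, CYP1B1, NR1I2, CYP3A5, CYP2B6, ABCB1 and POR, and they were chosen by symbol from the 58302 Ensembl identifiers in the count table. RNA-seq was made from 12 libraries in 4 groups of 3, and every group received DMSO at 0.2%. Cells labelled L1-FGGY, which carry a lentiviral construct over-expressing the LINE-1 chimeric transcript L1-FGGY, received DMSO alone, 10 μM ML355 or 450 μM NVR, and cells labelled CTRL, which carry the empty vector, received DMSO alone. ML355 is an inhibitor of the lipoxygenase 12-LOX, and NVR is a reverse transcriptase inhibitor used against L1. The medium was exchanged for medium with the compound 5 h after seeding, and the length of the exposure is not given in the sources used here. No source says whether the 3 libraries of a group came from separate cultures, so that p-values measure the spread between these libraries, which may be technical.

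Many foreign compounds are sensed inside the cell by ligand-activated transcription factors. AHR leaves its chaperone complex when a ligand binds, pairs with ARNT in the nucleus and acts on CYP1A1, CYP1B1, AHRR and TIPARP, of which the last 2 feed back to limit AHR. PXR, encoded by NR1I2, and CAR pair with RXR proteins and act mainly in liver and gut on CYP3A and CYP2B genes and on ABCB1, the drug efflux pump P-glycoprotein, while POR passes electrons to all microsomal P450 enzymes.

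The libraries held 16242082 to 27004768 counts. FGGY, the gene of the over-expressed chimeric transcript, had 4782, 5206 and 6196 counts in the L1-FGGY DMSO libraries and 7346, 6290 and 5080 in the L1-FGGY ML355 libraries. In the libraries labelled NVR it had 82, 103 and 88 counts, beside 91, 87 and 78 in CTRL DMSO. The libraries labelled NVR thus went against their L1-FGGY label for this gene, and 224 genes had at least 100 counts in every library of one pair of groups (L1-FGGY DMSO with ML355, or CTRL DMSO with labelled NVR) and at most 3 in every library of the other pair. The libraries labelled NVR were therefore compared with both DMSO groups, and against L1-FGGY DMSO an effect of NVR and the difference between the pairs cannot be told apart. By their label they differ from CTRL DMSO in construct as well as compound, so that these cannot be told apart there either. If the label is wrong, their exposure to NVR is not known. Of 7 squamous carcinoma markers, 3 exceeded 3 counts in any library, and KRT6A and DSG3 were at 0 in every library. Their summed level was 0.924 to 1.66 CPM (counts scaled to the size of each library) in L1-FGGY DMSO, 1.77 to 3.34 in ML355, 16.8 to 22.5 in CTRL DMSO and 7.44 to 17.2 in labelled NVR. SOX2, the squamous lineage factor, had 0 counts in every L1-FGGY DMSO and ML355 library and 128 to 446 in the other 6. TP63 went the same way, with 1 to 16 counts in L1-FGGY DMSO and ML355 and 34 to 108 in CTRL DMSO and labelled NVR. KRT14 went the other way, with 4, 10 and 8 counts in L1-FGGY DMSO and 54, 29 and 63 in ML355. It had 0 counts in every CTRL DMSO and labelled NVR library. For SOX2 the L1-FGGY DMSO and ML355 libraries thus went against the squamous name of the line. The 5 markers of lung adenocarcinoma or alveolar and club cells summed to 4.71 to 5.32 CPM in CTRL DMSO and 7.30 to 8.76 in labelled NVR. They were at most 0.860 CPM in L1-FGGY DMSO and 0.557 in ML355. NAPSA among them had 81 to 178 counts in CTRL DMSO and labelled NVR and 0 to 4 elsewhere. The summed level of 4 fibroblast markers was 360 to 380 CPM in L1-FGGY DMSO, 115 to 117 in ML355, 20.7 to 25.8 in CTRL DMSO and 17.3 to 20.2 in labelled NVR. Of these, LUM had 4000 to 4327 counts in L1-FGGY DMSO, 1165 to 1471 in ML355 and at most 2 elsewhere. DCN had 966 to 1266, 193 to 282 and 0 elsewhere. COL1A1 was the 1 marker above 3 counts in CTRL DMSO and labelled NVR, at 382 to 640 counts. The 3 endothelial markers summed to 9.54 to 10.3 CPM in L1-FGGY DMSO and at most 0.666 in the other groups, and the 4 leukocyte markers to 9.18 to 11.7 CPM in labelled NVR and at most 4.67 elsewhere, with PTPRC and CD3E at 0 in both CTRL DMSO and labelled NVR. Among the leukocyte markers CD14 had 208 to 254 counts in labelled NVR and 1 to 116 elsewhere. PTPRC went the other way, with 13 to 71 counts in L1-FGGY DMSO and ML355. The part of all these markers in the results on the xenobiotic genes was not tested. In bulk libraries such as these, fewer cells of a type and less RNA per cell cannot be told apart.

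The promoters of the responsive genes can be compared by the letters that the receptors are known to bind. RefSeq promoter sequences (GRCh38.p14, 250 bases before to 50 after a start) matched 8 of the 10 genes, and none was matched for CYP1B1 and POR. The AHR core letters GCGTG were searched on both strands and stood in 36.5% of 35116 promoter sequences, and in at least one promoter of 5 of the 8 genes, namely CYP1A1, ABCB1, AHR, AHRR and TIPARP. Genes with several starts have several promoters (2 for AHRR and 3 for TIPARP), which gives them more chances of a match. A match from each of 3 genes is shown because CYP1A1, AHRR and TIPARP are AHR targets, of which TIPARP rose with ML355 while AHRR fell. Each is written along the gene's strand with the core in capitals (CACGC where it lies on the other strand):
CYP1A1: ccagggaaggagGCGTGgccacacgtaca
AHRR: ggcgggcggctcGCGTGccggggtggggc
TIPARP: cgcgagaaaggaCACGCcccctcgcggga
The CYP1A1 window lies at chr15:74725569-74725597 on the minus strand, with the core at bases -57 to -53 from the start. The AHRR window lies at chr5:321672-321700 on the plus strand, with the core at -30 to -26, and it was the only window of the 8 genes that also held the longer letters TNGCGTG, found in 5.51% of all promoter sequences. The TIPARP window lies at chr3:156674370-156674398 on the plus strand, with the core at -208 to -204.

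For PXR, an everted repeat of half-sites spelled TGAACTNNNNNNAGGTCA was found in 3 of the 35116 promoter sequences (0.00854%), while the repeats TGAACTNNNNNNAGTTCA and TGAACTNNNTGAACT were found in 0. Both strands were searched. The matches in neighbouring CYP3A genes are shown because CYP3A5 and CYP3A4 differ in their levels in these cells, with the half-sites in capitals:
CYP3A5: agaacaTGAACTcaaaagAGGTCAgcaaag
CYP3A4: agaataTGAACTcaaaggAGGTCAgtgagt
Both lie on the minus strand of chromosome 7, at chr7:99680086-99680115 for CYP3A5 and chr7:99784330-99784359 for CYP3A4, with the repeat at bases -113 to -96 and -169 to -152. A match of letters is a description of the sequence and not evidence of binding in these cells.

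Of the 10 genes, 2 were below detection, taken as at most 3 counts in every library. NR1I2, the gene of PXR itself (chr3:119780484-119818487, plus strand), had 1 count in CTRL DMSO replicate 3 and 0 in the other 11 libraries. CYP2B6, the classic CAR target (chr19:40991282-41018398, plus strand), had 2 counts in L1-FGGY ML355 replicate 3, 1 in the library labelled NVR replicate 3 and 0 elsewhere, and its near-identical pseudogene CYP2B7P had at most 6. At the depth of these libraries a count of 0 allows a level of up to 0.111 to 0.185 CPM, so that lower levels were not detectable. This limit covers counting error only. ABCB1 (chr7:87503017-87713323, minus strand) stood just above the limit of detection, with 4, 5 and 5 counts in CTRL DMSO, 2, 3 and 1 in labelled NVR, 1, 1 and 0 in L1-FGGY ML355 and 0 in each L1-FGGY DMSO library. ABCB1 was too low to pass the filter of the test, and with a limit of 10 counts it too would be called below detection. CAR itself, NR1I3, had 1 to 18 counts per library.

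The other 7 genes were tested, and their levels per exon length differed widely. In L1-FGGY DMSO the order was TIPARP, a mono-ADP-ribosyltransferase, at 24.8 CPM per kb, POR at 19.4, AHRR at 15.8, CYP1B1 at 8.19, AHR at 7.01, CYP1A1 at 1.43 and CYP3A5 at 0.167, with no overlap of neighbours. In CTRL DMSO POR came first at 30.8 CPM per kb, followed by TIPARP at 12.3 and CYP1B1 at 9.72, and the ranges of CYP3A5 (0.568) and AHRR (0.449) overlapped. The place of AHRR thus moved from the third in L1-FGGY DMSO to the sixth in CTRL DMSO. POR also headed the libraries labelled NVR at 49.5 CPM per kb, where CYP1A1 was the lowest of the 7 at 0.0838.

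**Figure D1:**
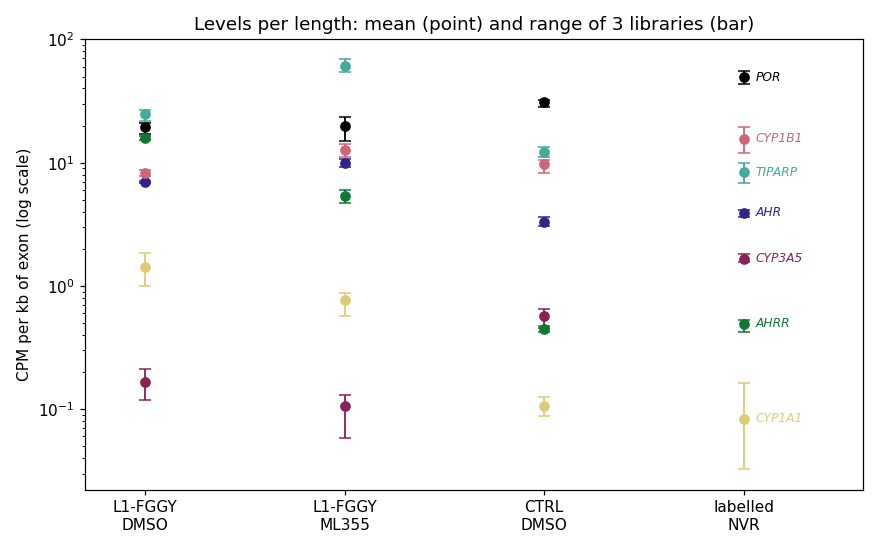
Levels of the 7 tested genes in CPM per kb of exon on a log axis, by group, with the mean of 3 libraries as a point and their range as a bar. AHRR lies at 15.8 in L1-FGGY DMSO and at 0.449 in CTRL DMSO, while POR stays between 19.4 and 49.5 in all groups.

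ML355 was compared with DMSO in the L1-FGGY cells to ask which of these genes moved with the compound. AHR, TIPARP and CYP1B1 were higher with ML355 and AHRR was lower, while CYP1A1, CYP3A5 and POR did not pass the test. These are 4 of 7 tested genes called at an adjusted p below 0.01 in edgeR, beside 44.8% of all 17849 genes tested (21.3% higher and 23.5% lower), so that a count of 4 in 7 is near the share in the table as a whole. The AHR targets therefore did not move in one direction.

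AHR, the receptor (chr7:16916359-17346152, plus strand, GRCh38 with GENCODE 44, as for the genes that follow), was at 56.5, 57.5 and 55.2 CPM in L1-FGGY DMSO and at 74.3, 86.4 and 79.0 with ML355. All ML355 libraries lay above all DMSO libraries, and the log2 fold change was 0.50 (SE 0.11, adjusted p = 7.18e-04, edgeR), or 1.42-fold. The call was lost when libraries were scaled by their total alone (adjusted p = 0.0312).

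AHRR, the repressor that competes with AHR for ARNT (chr5:321714-438291, plus strand), was at 145.0, 148.5 and 155.5 CPM in L1-FGGY DMSO and at 44.7, 51.7 and 56.6 with ML355. The groups lay far apart, at means of 149.7 ± 5.30 and 51.0 ± 6.03 CPM (SD, n = 3). AHRR was 2.94-fold lower with ML355 (log2 fold change -1.55, SE 0.11, adjusted p = 1.86e-08, edgeR). Its level with ML355 still exceeded that of CTRL DMSO, where it was 4.26 ± 0.237 CPM. The summed fibroblast markers moved in the same order over these 3 groups (360 to 380, 115 to 117 and 20.7 to 25.8 CPM). In both L1-FGGY groups 3 of 4 markers exceeded 3 counts, with COL1A2 at 0 in L1-FGGY DMSO. In CTRL DMSO only COL1A1 did, with DCN at 0 and LUM at 0 to 2 counts. The part of these markers in this result was not tested. An annotated gene on the same strand and another on the opposite strand overlap AHRR, and the counting of reads they share is not stated. The same limit holds for AHR, which 5 annotated genes overlap, and for POR, which 4 overlap. It also holds for TIPARP, which TIPARP-AS1 overlaps on the opposite strand.

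TIPARP, which marks AHR for degradation (chr3:156673235-156706770, plus strand), was at 128.5, 105.1 and 123.5 CPM in L1-FGGY DMSO and at 330.7, 263.2 and 287.2 with ML355. It rose 2.47-fold (log2 fold change 1.30, SE 0.14, adjusted p = 9.77e-07, edgeR), with every ML355 library above every DMSO library. AHRR and TIPARP, both feedback targets of AHR, thus changed in opposite directions in the same libraries.

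CYP1A1, the P450 enzyme most used as a sign of AHR activation (chr15:74719542-74725536, minus strand), had 84, 119 and 67 counts in L1-FGGY DMSO and 39, 57 and 55 with ML355. Its level was 4.81 ± 1.44 CPM with DMSO and 2.58 ± 0.572 CPM with ML355, and the ranges did not overlap. The log2 fold change of -0.90 (SE 0.33, 95% confidence interval -1.59 to -0.20) had an adjusted p of 0.0275 in edgeR and was not called. A fit to these 2 groups alone called it (adjusted p = 0.00688). The interval does not include a rise of CYP1A1. Its close relative CYP1A2 had at most 2 counts in any library.

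CYP1B1, the related enzyme of oestrogen and hydrocarbon oxidation (chr2:38066973-38109902, minus strand), was at 52.7, 48.0 and 47.3 CPM with DMSO and at 76.5, 85.2 and 66.7 with ML355. The rise was 1.54-fold (log2 fold change 0.63, SE 0.16, adjusted p = 0.00294, edgeR), and the groups did not overlap. Leaving out L1-FGGY DMSO replicate 2 or 3, or ML355 replicate 1 or 2, moved the adjusted p to between 0.0105 and 0.0166, past the threshold. The call was also lost when libraries were scaled by their total alone. An antisense transcript, CYP1B1-AS1, overlaps the gene and rose by 1.14 on the log2 scale (adjusted p = 0.00178, edgeR), and reads of the 2 genes cannot be told apart where they overlap, since the strand setting of the counting is not stated.

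CYP3A5, an enzyme of the family that handles the widest range of drugs (chr7:99648194-99679996, minus strand), had 36, 32 and 23 counts with DMSO and 26, 25 and 11 with ML355. The ranges overlapped, and the log2 fold change of -0.62 (SE 0.31) was not called (adjusted p = 0.0975, edgeR). POR (chr7:75899200-75986855, plus strand) was at 120.7 ± 12.7 CPM with DMSO and 122.5 ± 26.9 CPM with ML355, a log2 fold change of 0.02 with a 95% confidence interval of -0.29 to 0.34. The interval holds changes of POR in both directions.

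**Figure D2:**
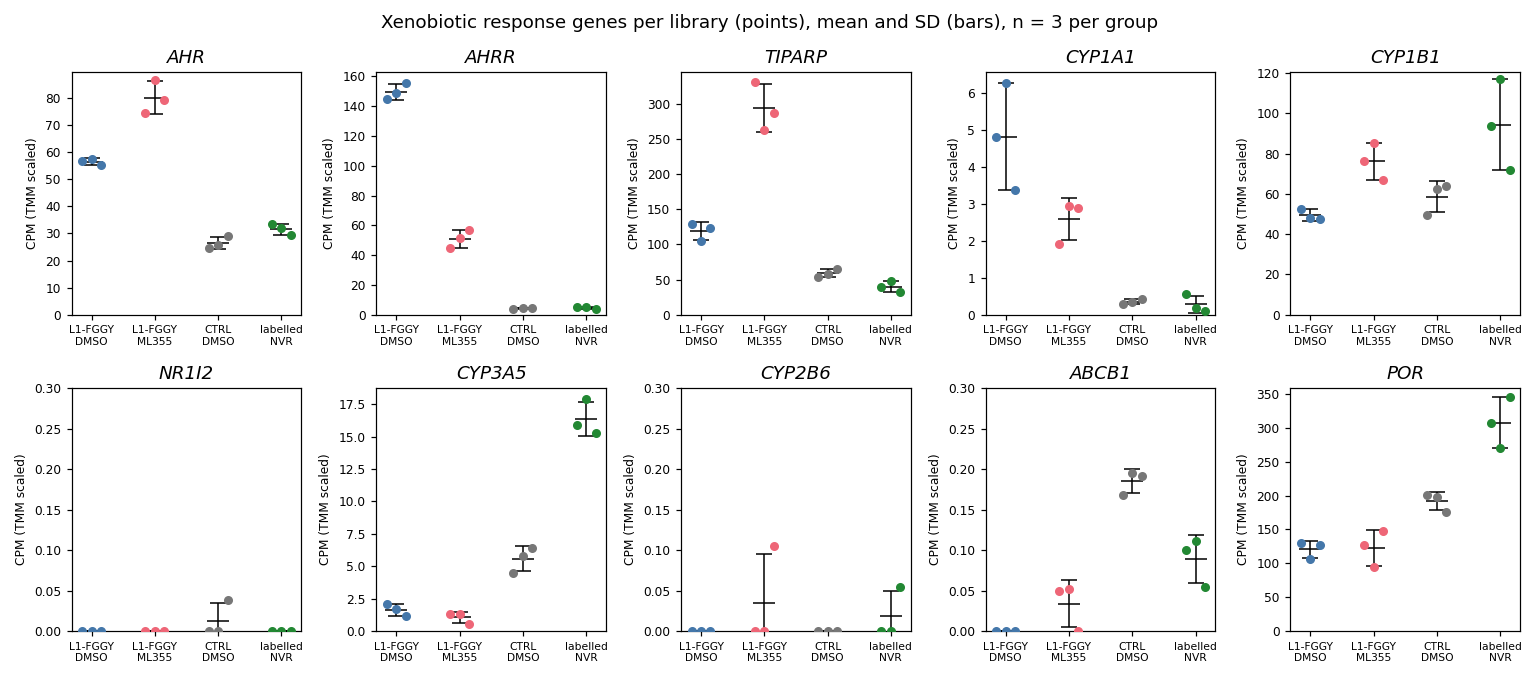
Scaled CPM of each of the 10 genes in each library (points) with mean and SD (bars), 3 libraries per group, on linear axes that start at 0 and differ between panels. AHRR falls from 149.7 CPM in L1-FGGY DMSO to 51.0 with ML355 as TIPARP rises to 293.7, and NR1I2, CYP2B6 and ABCB1 stay at or near 0.

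The libraries labelled NVR were set first beside CTRL DMSO, which they resembled in FGGY. By label these groups differ in construct as well as compound, and the part of each in the values below was not tested. In labelled NVR the levels of CYP3A5, CYP1B1 and POR exceeded those of CTRL DMSO and TIPARP was lower, while CYP1A1, AHR and AHRR were not called. This makes 4 of 7 genes, beside 29.8% of all genes tested (14.5% higher and 15.3% lower).

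CYP3A5 had 107, 149 and 167 counts in CTRL DMSO and 318, 483 and 279 in the libraries labelled NVR. All libraries labelled NVR lay above all CTRL DMSO libraries, at 16.4 ± 1.35 against 5.57 ± 0.976 CPM. The difference was 2.93-fold (log2 fold change 1.55, SE 0.22, adjusted p = 4.26e-05, edgeR), and it stayed between 1.42 and 1.66 on the log2 scale when any 1 library was left out. Near-identical CYP3A copies could share reads with CYP3A5, but CYP3A4 had at most 2 counts in any library, CYP3A7 at most 6 and CYP3A43 at most 3. Of the 2 CYP3A genes whose promoters carry the same repeat, only CYP3A5 was expressed above these low counts. The same 6 libraries had at most 1 count of NR1I2 and 5 to 18 of NR1I3. The part of PXR or CAR in the level of CYP3A5 was not tested.

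POR was at 200.9, 198.1 and 175.9 CPM in CTRL DMSO and at 307.3, 269.9 and 345.9 in labelled NVR. The groups did not overlap, and the log2 fold change was 0.68 (SE 0.15, adjusted p = 0.00167, edgeR), or 1.61-fold. Without CTRL DMSO replicate 3 the adjusted p was 0.0106.

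CYP1B1 was at 49.7, 62.3 and 63.7 CPM in CTRL DMSO and at 93.9, 117.0 and 72.0 in labelled NVR, a log2 fold change of 0.69 (SE 0.16, adjusted p = 0.00222, edgeR). Here CYP1B1-AS1 was not called (log2 fold change 0.42, adjusted p = 0.354). The libraries labelled NVR spread widely for CYP1B1, and the call was lost without CTRL DMSO replicate 1 (adjusted p = 0.0111).

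TIPARP was at 53.6, 58.6 and 64.8 CPM in CTRL DMSO and at 39.9, 47.5 and 32.9 in labelled NVR. It was 1.47-fold lower (log2 fold change -0.55, SE 0.14, adjusted p = 0.00458, edgeR) with no overlap. This call was lost without CTRL DMSO replicate 2 or 3 and without labelled NVR replicate 1 or 3, at adjusted p of 0.0169 to 0.0255.

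The receptor and the most responsive AHR targets did not pass the test in this comparison. AHR was at 24.6, 25.8 and 29.0 CPM in CTRL DMSO and 33.3, 32.0 and 29.2 in labelled NVR, with a log2 fold change of 0.25 (SE 0.11, adjusted p = 0.0691, edgeR). AHRR had 95, 111 and 116 counts against 100, 136 and 73, and its log2 fold change of 0.14 had a 95% confidence interval of -0.16 to 0.44. CYP1A1 had 7, 9 and 11 counts against 11, 5 and 2, a log2 fold change of -0.36 with an interval of -1.51 to 0.79. Changes of CYP1A1 within that interval were not detectable at these counts.

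Against L1-FGGY DMSO, the control that the labels name, all 7 tested genes differed in the libraries labelled NVR, beside 73.6% of all genes tested (38.2% higher and 35.4% lower). AHRR was 31.8-fold lower (log2 fold change -4.99, SE 0.14, adjusted p = 4.36e-14, edgeR) and CYP1A1 had a log2 fold change of -4.09 (SE 0.43). The values were -1.57 for TIPARP and -0.84 for AHR. CYP3A5 was 10.0-fold higher (3.33, SE 0.25), and POR and CYP1B1 were higher by log2 fold changes of 1.35 and 0.94. The ML355 comparison uses the same control libraries.

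The 2 DMSO groups themselves differed in 6 of the 7 genes, beside 68.7% of all genes tested (32.5% higher and 36.2% lower), which shows how far the levels of these genes moved with no compound. AHRR was 35.1-fold higher in L1-FGGY DMSO than in CTRL DMSO (log2 fold change 5.13, SE 0.14, adjusted p = 2.87e-14, edgeR). CYP1A1 was 13.3-fold higher (3.73, SE 0.40), AHR 2.13-fold higher (1.09, SE 0.11) and TIPARP 2.02-fold higher (1.01, SE 0.14). On the opposite side, CYP3A5 was lower by a log2 fold change of -1.78 and POR by -0.67, and CYP1B1 was not called (-0.25, SE 0.16, adjusted p = 0.161). For AHRR, CYP1A1, AHR and CYP3A5 the log2 fold change between the DMSO groups was larger in size than that of ML355 against L1-FGGY DMSO and that of labelled NVR against CTRL DMSO, although the sizes were not tested against each other. For CYP3A5 the values are close, at -1.78 between the DMSO groups and 1.55 for labelled NVR against CTRL DMSO.

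**Figure D3:**
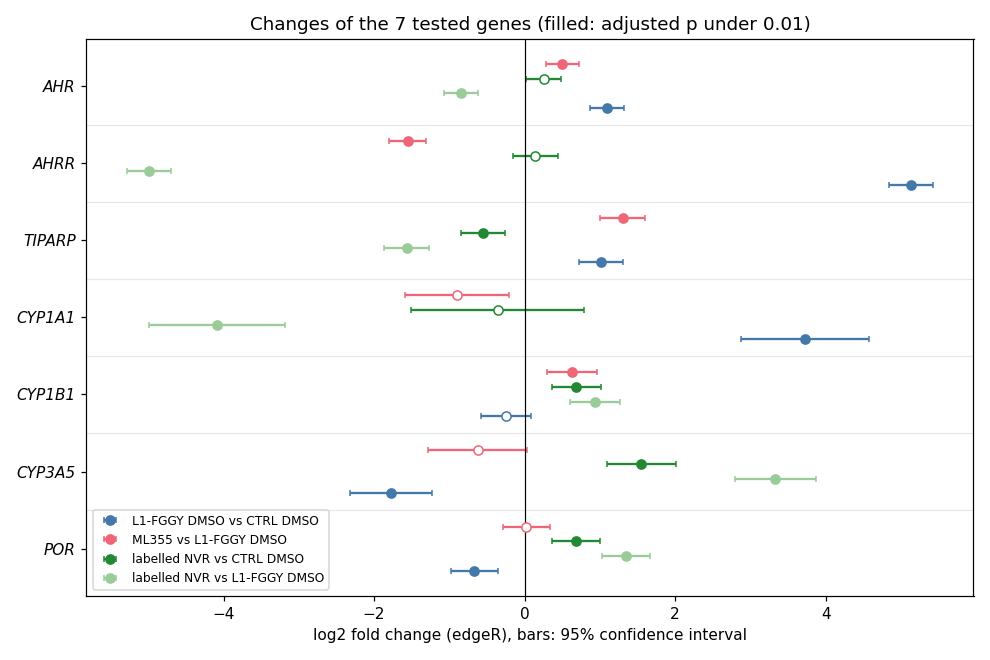
Log2 fold changes of the 7 tested genes in 4 comparisons, with 95% confidence intervals, where filled points passed an adjusted p below 0.01 in edgeR. The intervals for AHRR are -1.80 to -1.31 with ML355 and -0.16 to 0.44 for labelled NVR against CTRL DMSO, and those for CYP3A5 are -1.28 to 0.03 and 1.09 to 2.02.

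The ML355 change and the change of the libraries labelled NVR against CTRL DMSO were compared directly, as the first minus the second. Each change has its own control, L1-FGGY DMSO for ML355 and CTRL DMSO for labelled NVR. A difference between the compounds and one between the cells therefore cannot be told apart in this test. The libraries labelled NVR also went against their label for FGGY. The test passed for 3 of the 7 genes, beside 34.1% of all genes tested (17.3% higher and 16.8% lower). For TIPARP the difference was 1.86 on the log2 scale (SE 0.20, adjusted p = 1.76e-06, edgeR). For AHRR it was -1.69 (SE 0.18, adjusted p = 1.77e-06) and for CYP3A5 it was -2.18 (SE 0.38, adjusted p = 2.09e-04). For CYP1B1, which was higher in both, the difference was -0.06 with a 95% confidence interval of -0.53 to 0.41. AHR, CYP1A1 and POR were not called, at adjusted p of 0.185, 0.531 and 0.017.

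The other genes of these pathways, 72 in 7 lists, gave the setting. Of them 50 were tested and 12 were below detection. With ML355, 10 were higher and 13 lower (median log2 fold change 0.03, beside 0 over all genes tested). These calls make 46% of the 50, near the 44.8% of all genes tested. For labelled NVR against CTRL DMSO, 8 were higher and 9 lower (median -0.08, beside 0). That is 34% of the 50, beside 29.8% of all genes tested. In L1-FGGY DMSO and ML355, 7 of the 50 had at most 10 counts in every library, as did 1 in CTRL DMSO and labelled NVR.

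Among the 6 AHR partners, 3 were higher with ML355 and 1 lower, beside 21.3% and 23.5% of all genes tested. ARNT, the dimerization partner of AHR, had a log2 fold change of 0.49 (adjusted p = 0.00262, edgeR) and the chaperone HSP90AB1 of 0.46. ARNT2, the neural paralog of ARNT, had 338, 418 and 342 counts with DMSO and 8, 11 and 13 with ML355, a log2 fold change of -5.15 (SE 0.22, adjusted p = 5.53e-11), the largest in size among the 50 pathway genes tested in this comparison. In the libraries labelled NVR against CTRL DMSO 3 partners were lower, ARNT2 (-0.54), HSP90AA1 (-0.60) and HSP90AB1 (-0.53), beside 15.3% of all genes tested.

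Of 12 further AHR targets 7 were tested. With ML355, 1 was higher, NFE2L2, the regulator of antioxidant genes (log2 fold change 0.60), and 3 were lower, among them the tryptophan-degrading enzyme IDO1 (-3.80, SE 0.40, adjusted p = 8.93e-07, edgeR) and the efflux pump ABCG2 (-0.58). Over all genes tested, 21.3% were called higher with ML355 and 23.5% lower. For labelled NVR against CTRL DMSO 0 of the 7 passed an adjusted p below 0.01 in edgeR, beside 29.8% of all genes tested. Their median was -0.27 and 4 had an unadjusted p below 0.05 in edgeR (1 higher and 3 lower). The share of all genes at that unadjusted p is not given here. There DESeq2 called 1 higher and 1 lower, beside 3368 higher and 2940 lower of all 17849 genes. For limma voom 0 were called, beside 5553 of all genes. ALDH3A1, an aldehyde dehydrogenase induced through AHR, ran against AHRR and CYP1A1 between the DMSO groups, with 82 to 117 counts in L1-FGGY DMSO and 52817 to 58557 in CTRL DMSO, and was chosen for mention after its values were seen. Of the 7, 3 were higher in L1-FGGY DMSO than in CTRL DMSO and 4 lower, beside 68.7% of all genes called in either direction.

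For the partners of PXR and CAR, 9 of 10 were tested. VDR, the vitamin D receptor, which can act on CYP3A genes, fell with ML355 from 38.4 to 7.43 CPM (log2 fold change -2.37, SE 0.16, adjusted p = 5.89e-09, edgeR). HNF4A, a hepatocyte nuclear factor that maintains CYP expression, was lower in both comparisons, by log2 fold changes of -0.89 with ML355 and -2.15 in labelled NVR against CTRL DMSO. The corepressor NCOR1 was higher with ML355 (0.57). The hepatocyte markers themselves summed to at most 1.48 CPM in any library, with TTR at 0 in every library.

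Only 5 of 15 further PXR and CAR targets were tested and 6 were below detection. With ML355 GADD45B, a stress-induced gene also induced through CAR, rose from 16.4 to 122.2 CPM (log2 fold change 2.90, SE 0.22, adjusted p = 2.97e-08, edgeR) and ALAS1, the first enzyme of haem synthesis, had a log2 fold change of 0.47. The conjugate exporter ABCC2 was lower in both comparisons, at -1.53 with ML355 and -0.78 in labelled NVR. EPHX1, the microsomal epoxide hydrolase, was higher in labelled NVR, at 722.0 against 326.3 CPM in CTRL DMSO (log2 fold change 1.15, SE 0.13, adjusted p = 4.30e-06). In labelled NVR 1 of the 5 was higher and 2 were lower, beside 14.5% and 15.3% of all genes tested, and the other 10 targets were too low to test.

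The partners and clients of POR were all detected, 9 of 9. With ML355 the sterol demethylase CYP51A1 was higher (log2 fold change 2.16, SE 0.42), and the electron carrier CYB5B was lower (-1.32, SE 0.10, adjusted p = 2.07e-08, edgeR), as was PGRMC2 (-0.58). In labelled NVR against CTRL DMSO the haem oxygenase HMOX2 was higher (0.71) while HMOX1 (-0.47) and CYB5B (-0.60) were lower. In all, 3 of 9 were called in that comparison (1 higher and 2 lower), near the 29.8% of all genes tested.

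For other P450 genes of families 2 and 4, the counts left less to compare with ML355 than in labelled NVR. In labelled NVR against CTRL DMSO 5 of 10 tested were higher and 0 lower in edgeR, beside 14.5% of all genes called higher. Their median log2 fold change was 0.75, beside 0 over all genes tested. DESeq2 called 8 higher and 0 lower, beside 3368 higher and 2940 lower of all 17849 genes. With limma voom 7 were higher and 0 lower, beside 2747 and 2806 of all genes. At an unadjusted p below 0.05 in edgeR 8 were higher and 0 lower, and the share of all genes at that p is not given here. CYP4F12, a fatty acid and drug hydroxylase, had 128, 131 and 119 counts in CTRL DMSO and 421, 455 and 457 in labelled NVR (log2 fold change 2.06, SE 0.18, adjusted p = 4.31e-07, edgeR). CYP4V2 (1.41) and CYP4F11 (0.83) were also higher, and reads of the near-identical CYP4F genes may be split between them. CYP2J2, also called, had 0, 0 and 1 counts in CTRL DMSO and 6, 13 and 6 in labelled NVR, so that its fitted change is no measure of size. In L1-FGGY DMSO and ML355, 6 of the 10 had at most 10 counts in every library, having passed the filter through CTRL DMSO and labelled NVR, so that few calls with ML355 were possible. There CYP2D6 was the 1 gene of the 10 called, beside 44.8% of all genes tested. Its log2 fold change was -3.02, from 1.42 to 0.171 CPM, and reads of this gene may be shared with a near-identical pseudogene. The test of the ML355 change minus that of labelled NVR against CTRL DMSO called 4 of the 10 (40%). This lies beside 34.1% of all genes tested, and it includes the same low genes.

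The drug efflux transporters other than ABCB1 gave 4 tested genes. ABCC4 was lower in both comparisons, at log2 fold changes of -0.80 with ML355 and -0.53 in labelled NVR, and ABCC5 was lower with ML355 (-1.23, SE 0.15). ABCC10 was higher in labelled NVR (0.55, adjusted p = 0.00434, edgeR). ABCB4, the neighbour and closest relative of ABCB1, had at most 4 counts in any library.

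**Figure D4:**
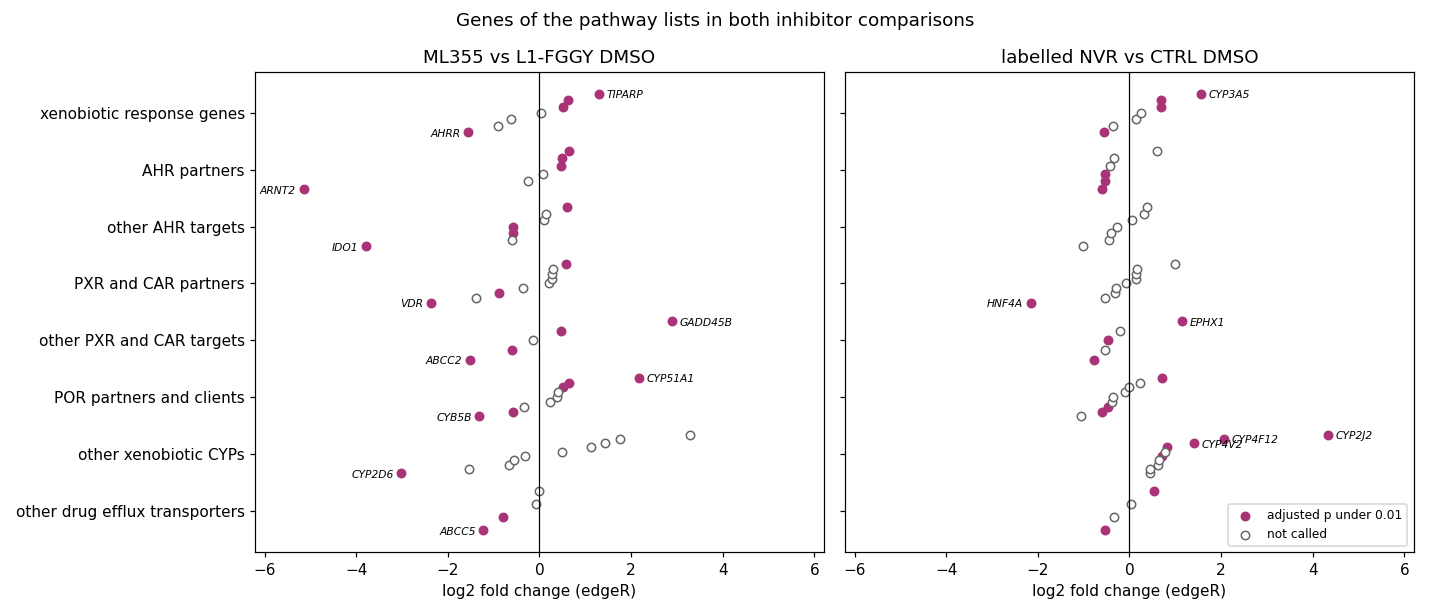
Log2 fold changes of the tested genes of each list with ML355 (left) and in the libraries labelled NVR against CTRL DMSO (right), with filled points for an adjusted p below 0.01 in edgeR and names where a called gene changed by at least 1. On the left filled points lie on both sides of 0 in most lists, while the 5 called P450 genes of families 2 and 4 on the right are all above 0.

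The genes whose scaled levels ran most alike over the 12 libraries were listed by Pearson's r, as a description, for the tested genes other than AHRR. For TIPARP these were GNA13 (r = 0.996), XPOT and PATJ, and for AHR CLDN12 (r = 0.997), PELI1 and MXD1. CYP3A5 ran most like PHLDA1 (r = 0.987), POR like CRIP1 (r = 0.989), CYP1A1 like SOX7 (r = 0.982) and CYP1B1 like TEP1 (r = 0.948). The libraries fall into 2 pairs of groups, and these values largely reflect levels shared within a group. No other of the 10 genes appeared among the 3 nearest to any of these.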

How the data were processed

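RNA-seq counts of 12 libraries were used. Per the labels and the submitters' processing notes, the authors aligned reads to hg38 (STAR 2.5.3a) and deposited counts per gene (HTSeq 0.11.2), unnormalised. The annotation release, strand setting and treatment of multiply mapped reads are not given in the sources used here. Symbols were matched through GENCODE 44 for 57532 of 58302 identifiers. Counts were tested with edgeR 4.0.16 (quasi-likelihood, TMM scaling, filterByExpr, all 4 groups, 17849 genes, common BCV 0.143), with Benjamini-Hochberg adjustment over all genes and a threshold of 0.01, in R 4.3.3. CPM are TMM scaled. The fit was tested on simulated data. Alternatives were DESeq2 1.42.0, limma 3.58.1 (voom), other scalings and filters, fits to 2 groups, a replicate block and leaving out each library. The 10 genes and the lists were chosen with earlier results of these data known. Named genes of a list are the 3 with the smallest adjusted p among called genes averaging 1 CPM or more. Detection means over 3 counts in a library. All genes tested are adjusted together, and no test over a list was made.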

Additional observations from a re-analysis of the deposited data

How the results depend on the processing

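Of 693 values of the 7 genes' log2 fold changes under the alternatives, 664 kept their direction and their side of the threshold. With ML355, 2 of the 7 genes were called with library size alone as scaling (main count 4), beside 7589 of all 17849 genes (main count 8004). With an added limit of 1 on the log2 scale 2 of the 7 and 9 other pathway genes were called. In labelled NVR against CTRL DMSO, 2 of the 7 were called in a fit to those 2 groups, beside 4179 of all genes (main count 5316), and 1 with the limit of 1. Other pathway genes numbered 29 at an adjusted p below 0.05 and 5 with the limit. The shares of all genes at 0.05 and with the limit are not given here. Without CTRL DMSO replicate 2 or 3, all genes called in this comparison numbered 3510 and 3559. Leaving out 1 library each gave 3 to 4 genes called with ML355, 2 to 4 in labelled NVR against CTRL DMSO (2 without CTRL DMSO replicate 3, where TIPARP and POR were lost), 7 against L1-FGGY DMSO, 6 between the DMSO groups and 3 to 4 for the difference of changes, and 9 to 24 other pathway genes in labelled NVR against CTRL DMSO (9 without CTRL DMSO replicate 2). Values that changed sign had not been called: POR with ML355 (-0.11 with library size alone, -0.13 to 0.18 with 1 library left out), AHRR in labelled NVR against CTRL DMSO (-0.010 with library size alone), and, in the difference of changes, CYP1A1 (-0.88 to 0.28) and CYP1B1 (-0.24 to 0.11) with 1 library left out. Library size alone moved the median of all genes by -0.13 with ML355 and -0.15 in labelled NVR against CTRL DMSO. The cause of these changes was not tested. POR passed the threshold in the difference of changes with DESeq2 (adjusted p = 0.00702), with no filter (0.00228), without ML355 replicate 3 (0.00475) and without labelled NVR replicate 2 (0.00481).

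Same-numbered libraries did not deviate together (correlations of -0.354 to 0.17), so that the numbers do not pair the libraries. With the replicate number as a block, 7583 genes were called with ML355 in place of 8004, and 4754 in place of 5316 in labelled NVR against CTRL DMSO. Depth limits CYP1A1 outside L1-FGGY DMSO and ML355, and ABCB1, NR1I2 and CYP2B6 everywhere. With a limit of 10 counts, 3 genes were below detection in place of 2.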
